A study of Mus musculus with 2 samples.

Results

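The genes described here encode the costimulatory members of the tumour necrosis factor (TNF) family chosen by symbol: the receptors Tnfrsf9, Tnfrsf4, Tnfrsf18, Cd27 and Cd40, and the ligands Cd40lg, Tnfsf9 and Cd70. All 8 of the 8 named genes had a row among the 15416 genes of the count matrix. The cells were sorted for the surface proteins CD45 and JAML, a junctional adhesion molecule-like receptor, from tumours of 3 mice, and were measured in one 10x Genomics 5' v2 library. Each mouse was marked by a hashtag antibody. The hashtag names carry B16F10, the name of a mouse melanoma line, and the words isotype and CTRL, so the 3 mice form 1 group. No JAML-negative cells and no second treatment were compared, and strain and age are not given in the sources used here. RNA of the genes was counted as unique molecular identifiers (UMIs) in 5976 cells, of which 5968 carried a hashtag (2445, 1184 and 2339 cells of mice 1, 2 and 3). The median depth was 16912, 15917 and 11648 UMIs per cell. Levels are UMI counts summed over the cells of a mouse and class and scaled to CPM (counts per 1000000 UMIs of that sum).

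TNF-family costimulatory receptors are membrane proteins that bind trimeric ligands on a neighbouring cell and recruit TRAF adaptor proteins, which switch on canonical and non-canonical NF-kB. On lymphocytes, 4-1BB (Tnfrsf9), OX40 (Tnfrsf4) and GITR (Tnfrsf18) are induced by antigen receptor signals and sustain survival and effector function, whereas CD27 is already present on naive and memory T cells. CD40 works in the opposite direction: helper T cells display CD40 ligand, and CD40 signals license dendritic cells to prime cytotoxic T cells, in part by raising 4-1BB ligand (Tnfsf9) and CD70, the ligand of CD27.

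In the RefSeq annotation of GRCm38.p6 the receptors Tnfrsf4 (chr4:156013595-156016613) and Tnfrsf18 (chr4:156026322-156028894) are close neighbours, and Tnfrsf9 lies on the same chromosome (chr4:150920155-150946104). The ligands Tnfsf9 (chr17:57105287-57107758) and Cd70 (chr17:57145997-57149777) are likewise near one another. Cd40 (chr2:165055614-165071654), Cd27 (chr6:125232620-125237136) and Cd40lg (chrX:57212143-57224042) stand alone. The antisense gene Gm16008, which has a row of its own in the matrix, overlaps Tnfrsf18 in the same annotation, and whether counting used strand is not given in the sources used here.

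Sequence upstream of RefSeq starts was available for Tnfrsf9 (2 starts), Tnfrsf4, Tnfrsf18 and Cd27. The 250 bases before each start were searched on both strands for an NF-kB consensus, for TGANTCA, the letters of an AP-1 element, and for TGACGTCA, those of a CRE element. The Tnfrsf4 window (chr4:156013445-156013694) and the Cd27 window (chr6:125237028-125237277) reached into the gene spans given above. For these genes the sequence before the outermost start was therefore searched only in part. Only the window before the second, internal Tnfrsf9 start (chr4:150927749-150927998) held a match. It had an NF-kB match from 43 to 33 bases before the start, made of overlapping copies of the consensus, and a TGANTCA match from 15 to 9 bases before it. Both pieces are shown with 6 bases on each side and the match in capitals, below the window before the first Tnfrsf9 start (chr4:150919905-150920154), which held no match. All are on the plus strand, 5′ to 3′, and are shown because Tnfrsf9 is the member with the widest range of levels below.
Tnfrsf9 first start: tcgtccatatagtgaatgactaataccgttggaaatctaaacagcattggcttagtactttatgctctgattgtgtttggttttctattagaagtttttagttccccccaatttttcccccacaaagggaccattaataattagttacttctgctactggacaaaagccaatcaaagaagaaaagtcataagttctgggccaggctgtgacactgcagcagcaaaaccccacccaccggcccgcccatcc
Tnfrsf9 second start, NF-kB (chr4:150927950-150927972): gcagctGGGGATTTCCCaggagg
Tnfrsf9 second start, TGANTCA (chr4:150927978-150927996): ctcagtTGAGTCAcaggtc
Among 32851 windows of the same length, 3.90% held the NF-kB consensus, 6.75% TGANTCA and 1.55% TGACGTCA. A match describes letters and not a bound site, and counts per gene do not tell which Tnfrsf9 start was used.

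The levels below are given over the authors' 16 subclusters at resolution 0.8. Subclusters 5, 8 and 14 resembled exhausted CD8 T cells, the latter pair with genes of dividing cells. Subclusters 1 and 7 were CD8 T-like, 10 memory CD8 T-like, 15 T-like and led by interferon genes such as Ifit3, and 3 NK or ILC1-like with 3 of 4 gamma-delta T cell markers beside 7 of 9 NK or ILC1 markers. Subclusters 0 and 9 were plasmacytoid dendritic cell-like, 6 and 11 (dividing) cDC1-like, 4 cDC2-like, 12 migratory dendritic cell-like and 2 macrophage-like, while 13 was led by Apod and left unnamed. By the labels the sort yielded T cells, but T cell markers summed to 7069 CPM in subcluster 5 and to 75.2 CPM in subcluster 0. They summed to 4614 CPM in NK or ILC1-like subcluster 3 and to 5316 CPM in memory CD8 T-like subcluster 10. Subcluster 3 may therefore hold T cells too. Because the authors built the subclusters from the same cells, and Tnfrsf9 and Tnfrsf4 are among the 10 leading genes of subcluster 5, differences between subclusters are a description without a test. Subcluster 14 had under 10 cells in mouse 2, and subcluster 15 in mouse 1, so their levels rest on 2 mice.

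Tnfrsf9 RNA, which encodes 4-1BB, was concentrated in the exhausted CD8 T-like subclusters. In subcluster 5 its level was 487, 678 and 821 CPM in mice 1, 2 and 3 (662 ± 167, SD, n = 3), and this subcluster held 51.1% of all Tnfrsf9 UMIs. The dividing subcluster 8 had 319, 379 and 206 CPM (301 ± 87.9), and the dividing subcluster 14 had 296 and 389 CPM in mice 1 and 3. Every mouse of subcluster 5 was above every value of both dividing subclusters, which overlapped each other. NK or ILC1-like subcluster 3 followed with 189, 126 and 96.9 CPM (137 ± 46.9). Migratory dendritic cell-like subcluster 12 had 131, 48.5 and 147 CPM (109 ± 53.1), and these last ranges overlapped. In the CD8 T-like subclusters 1 and 7, Tnfrsf9 was 59.0, 36.5 and 9.65 CPM and 66.1, 39.2 and 10.7 CPM. There, mouse 3 was lowest, whereas in subcluster 5 it was highest. The plasmacytoid dendritic cell-like subcluster 0 had 3.13 ± 1.37 CPM.

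Seen per cell, 414 of 446 cells of subcluster 5 carried a Tnfrsf9 UMI (92.8%, 95% exact Clopper-Pearson interval 90.0 to 95%). The share was 35.9% in subcluster 3 (32.2 to 39.8%) and 4.83% in subcluster 0, whose cells should lack the gene (3.55 to 6.41%). Median depths were 21106, 8908 and 13482 UMIs. After each cell was thinned to 7537 UMIs, with 595 shallower cells left out, the shares were 80.8%, 35.9% and 3.14%. The intervals cover counting error only. In dividing subcluster 8 the share differed between mice, at 82.7%, 72.7% and 37.6%, so its Tnfrsf9-negative cells came mostly from mouse 3. In subcluster 3 a few cells weighed heavily: the 3 cells with most Tnfrsf9 held 23.2% of that subcluster's Tnfrsf9 UMIs, and 1 cell had 98.

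Tnfrsf4, which encodes OX40, was found at high levels in the exhausted CD8 T-like and the migratory dendritic cell-like cells. Its level in subcluster 5 was 151, 277 and 331 CPM (253 ± 92.3), and in subcluster 12 it was 203, 107 and 198 CPM (169 ± 54.1). The ranges overlapped, with subcluster 5 higher in 2 of 3 mice. Subcluster 8 had 62.4, 204 and 68.9 CPM, where mouse 2 alone was high. Unlike Tnfrsf9, Tnfrsf4 was near the level of the plasmacytoid cells in NK or ILC1-like subcluster 3, at 3.55, 1.60 and 5.24 CPM against 3.13, 1.59 and 1.56 CPM in subcluster 0. The 2 subclusters with the highest levels held 53.6% and 11.9% of all Tnfrsf4 UMIs, and 62.8% and 59.2% of their cells carried one. In subcluster 1 the mean of 31.6 CPM rested on few cells, since 3 of 785 cells held 57.7% of its Tnfrsf4 UMIs.

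T cell markers summed to 282 CPM in subcluster 12 against 7069 CPM in subcluster 5, with all 6 detected in both. Cd27 in subcluster 12 was 12 ± 1.76 CPM against 196 ± 8.04 CPM in subcluster 5. Tnfrsf4 stood at 169 and 253 CPM in the same pair of subclusters. The part of T cell transcripts in the Tnfrsf4 level of subcluster 12 was not tested.

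Tnfrsf18, the GITR gene, was spread over the T and NK-like subclusters. It was 231, 300.5 and 296 CPM in subcluster 5 (276 ± 38.7) and 256, 237 and 269 CPM in NK or ILC1-like subcluster 3 (254 ± 16.1), with overlapping ranges. Subcluster 1 had 217, 171 and 102 CPM, and memory CD8 T-like subcluster 10 had 149.5, 136 and 93.1 CPM. Mouse 3 was again the lowest in both. Migratory dendritic cell-like subcluster 12, at 176, 137 and 165 CPM, lay within the range of the T cell-like subclusters and above all other dendritic or macrophage-like ones. Those ranged from 15.1 ± 3.52 CPM in macrophage-like subcluster 2 to 47.6 ± 3.29 CPM in cDC2-like subcluster 4. The gap between the lowest lymphocyte mean (126 ± 29.5 CPM, subcluster 10) and subcluster 4 was wider than the spread over mice, with no overlap. A Tnfrsf18 UMI was nonetheless present in 20.1% of macrophage-like cells, the lowest share of any subcluster, against 92.8% in subcluster 5.

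Cd27 divided lymphocytes from all other cells. The 8 T and NK-like subclusters had mean levels from 138 ± 11.3 CPM (subcluster 8) to 228 ± 67.5 CPM (subcluster 14, 2 mice). The other 8 subclusters had means from 4.62 ± 3.52 to 12 ± 1.76 CPM. Within the lymphocytes neighbouring subclusters overlapped throughout the order of levels. Exhausted-like subcluster 5 had 204, 194 and 188 CPM, memory-like subcluster 10 had 179, 204 and 144 CPM, and NK or ILC1-like subcluster 3 had 170.3, 195 and 169 CPM. Subclusters further apart in the order could be separate: dividing subcluster 8, at 143, 147 and 126 CPM, lay below every value of subclusters 5 and 3. A spread as wide as that of Tnfrsf9 over the same subclusters was not seen for Cd27.

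**Figure D1:**
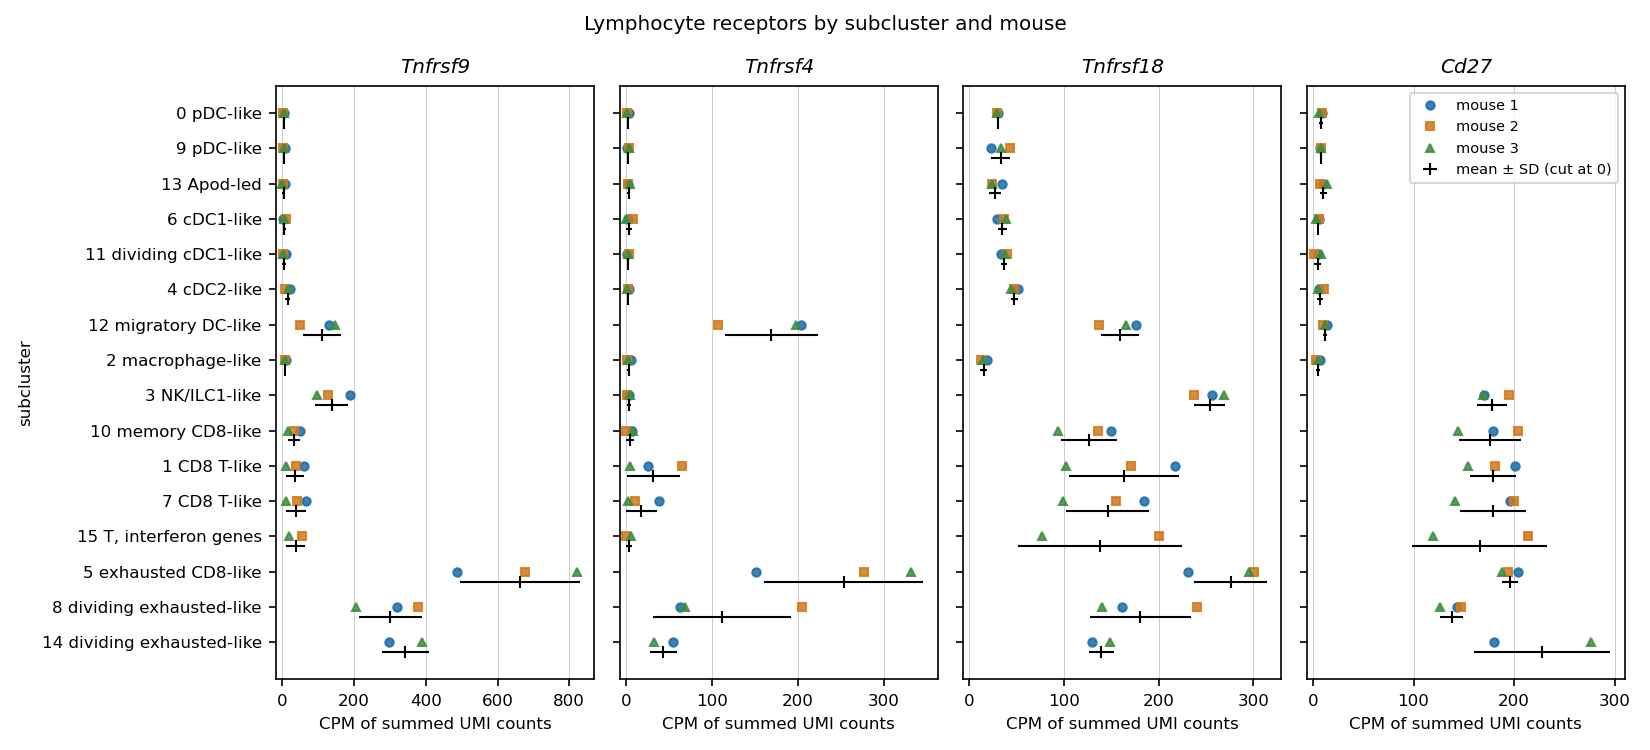
Levels (CPM of summed UMI counts, x axes starting near 0 and differing between panels) of Tnfrsf9, Tnfrsf4, Tnfrsf18 and Cd27 in the 16 subclusters (y axis). Coloured symbols are single mice and black bars the mean ± SD over mice, cut at 0. Tnfrsf9 and Tnfrsf4 are highest in subcluster 5, Tnfrsf4 also in subcluster 12, and Cd27 lies at 138 to 228 CPM in all T and NK-like subclusters.

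Cd40, the receptor through which helper T cells act on antigen-presenting cells, had the opposite distribution. Migratory dendritic cell-like subcluster 12 had 254, 253 and 217 CPM (241 ± 20.9), and 107 of its 125 cells carried a UMI (85.6%, 78.2 to 91.2%). Every mouse there was above every value elsewhere. The next subclusters overlapped one another: cDC2-like subcluster 4 had 70.0, 71.7 and 48.7 CPM, Apod-led subcluster 13 had 64.4, 77.2 and 30.4 CPM, and macrophage-like subcluster 2 had 45.2, 79.6 and 29.7 CPM. Mouse 3 was lowest in each. The cDC1-like subclusters 6 and 11 had 17.8 ± 6.58 and 17.8 ± 5.26 CPM. Means over the T and NK-like subclusters did not exceed 1.62 CPM.

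Tnfsf9, which encodes the 4-1BB ligand, followed Cd40 in part. Its level in subcluster 12 was 124, 149.5 and 59.8 CPM (111 ± 46.3), with mouse 3 within the range of the cDC2-like cells (48.8, 56.7 and 60.9 CPM in subcluster 4). Subcluster 13 had 64.4, 55.2 and 38.4 CPM and macrophage-like subcluster 2 had 40.4, 34.9 and 48.2 CPM. Exhausted-like subcluster 5 was below these, at 12.3, 16.3 and 23.1 CPM, and without overlap with subcluster 2. The share of cells with a UMI was 49.6% in subcluster 12 (40.5 to 58.7%), 49.8% in subcluster 4 and 42.4% in subcluster 2. Among dendritic cells the plasmacytoid subcluster 9 had 1 UMI in 268 cells.

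Cd70, the ligand of CD27, was rare: 438 UMIs are spread over 177 cells. Subcluster 12 had 53.2, 58.6 and 31.9 CPM (47.9 ± 14.1), and 25.6% of its cells carried a UMI (18.2 to 34.2%). Exhausted-like T cells were the other source, at 12.5, 21.4 and 36.9 CPM in subcluster 5 (23.6 ± 12.4) and 6.15, 35.3 and 9.19 CPM in subcluster 8. Subclusters 5, 12 and 8 held 38.4%, 25.3% and 24.4% of all Cd70 UMIs. In subcluster 5 the share of cells with Cd70 was 12.1%, 17.4% and 41.0% in mice 1, 2 and 3, and mouse 3 contributed only 39 cells. The cDC1-like and cDC2-like subclusters 6 and 4 had 0.243 ± 0.237 and 0.267 ± 0.234 CPM. CD8 T-like subcluster 1 had 0 UMIs in 785 cells, which allows up to 0.382% of cells with a UMI and sets no limit on cells that express the gene.

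Cd40lg, the CD40 ligand of helper T cells, was the rarest member, with 113 UMIs in 84 cells. Its highest mean was in CD8 T-like subcluster 1, at 16.9, 10.7 and 3.03 CPM (38 UMIs in 30 of 785 cells). NK or ILC1-like subcluster 3 had 3.84, 0.798 and 8.90 CPM (31 UMIs in 22 cells). The orders of these levels were not separable from the spread, and the mean of the first, 10.2 CPM, was 3.22 CPM in the 553 of 785 cells deep enough to be thinned and 16.0 CPM as a mean over cells. No Cd40lg UMI was found in subclusters 0, 4, 6, 11, 13 and 14. The name CD8 T-like does not place the UMIs of subcluster 1 in CD8 T cells. Subcluster 1 also carried Cd4 at 14.4 CPM. Over all T-cell clusters, cells with Cd8a or Cd8b1 and Cd3 but no Cd4 UMI held 11, 11 and 2 Cd40lg UMIs in mice 1, 2 and 3. Those with Cd4 and Cd3 but no Cd8a or Cd8b1 UMI held 15, 10 and 17.

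**Figure D2:**
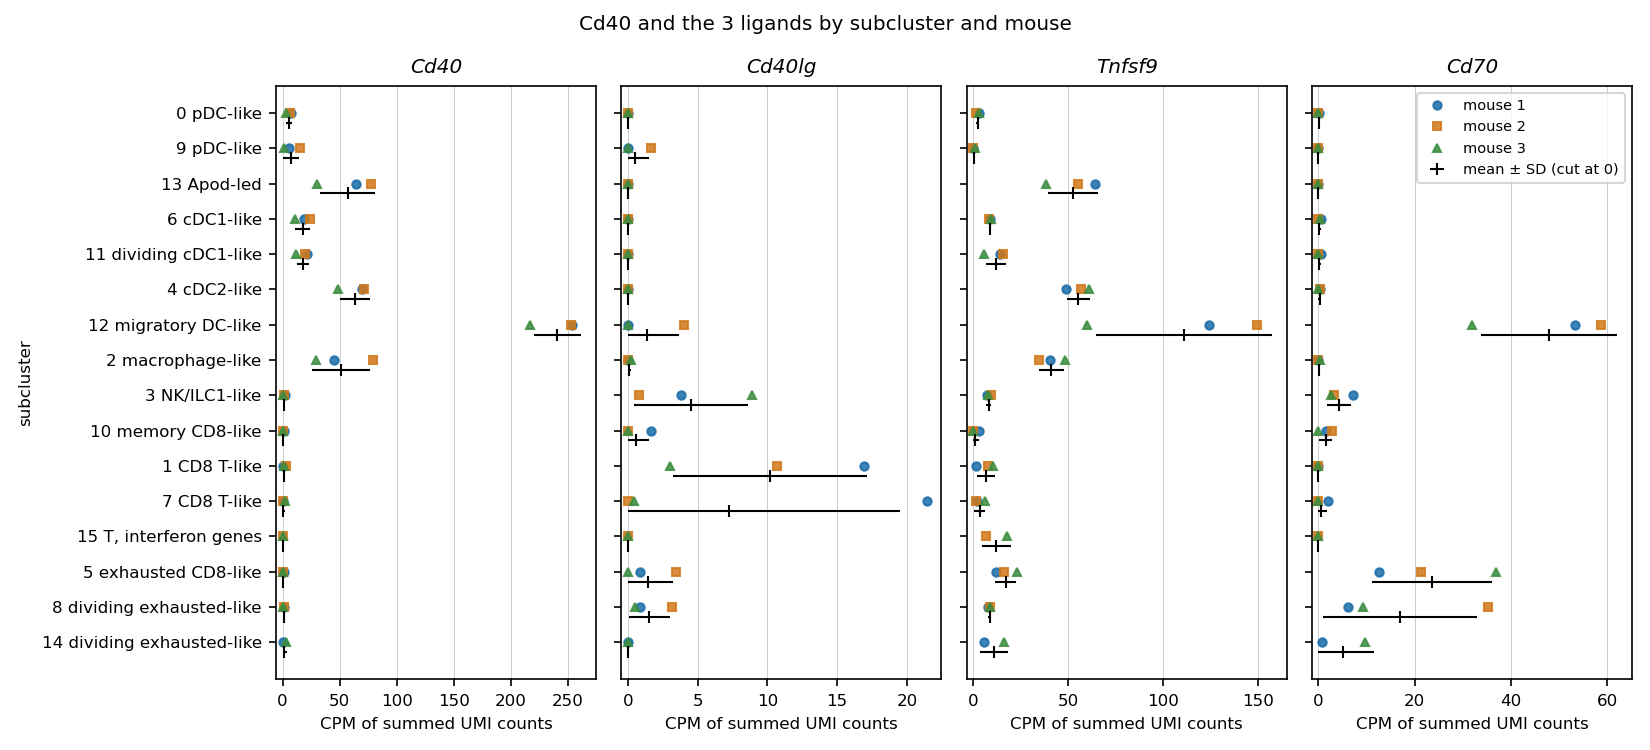
Levels (CPM of summed UMI counts, x axes differing between panels) of Cd40, Cd40lg, Tnfsf9 and Cd70 in the 16 subclusters (y axis), with symbols for single mice and black bars for the mean ± SD, cut at 0. Cd40, Tnfsf9 and Cd70 each have their highest mean in migratory dendritic cell-like subcluster 12 (241, 111 and 47.9 CPM), and Cd40lg stays under 22 CPM everywhere.

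Some cells carried UMIs of several receptors. UMIs of Tnfrsf9, Tnfrsf4 and Tnfrsf18 were all present in 266 of 446 cells of subcluster 5 (59.6%, 54.9 to 64.2%). The share was 32.4% in subcluster 8, 36.2% in subcluster 14 and 32.8% in migratory dendritic cell-like subcluster 12. In NK or ILC1-like subcluster 3 it was 0.791% (0.257 to 1.84%), although Tnfrsf9 with Tnfrsf18 was present in 33.2% of its cells. These shares are not adjusted for depth, which differed between subclusters. The product of the single-gene shares for the triple was 54.1% in subcluster 5, 20.6% in subcluster 8, 24.8% in subcluster 12 and 0.869% in subcluster 3. Some receptors and ligands were found in the same cells at shares close to such products, and others were not. Tnfrsf9 with Tnfsf9 was in 3.80% of subcluster 3 (product 2.16%), and Tnfrsf9 with Cd70 in 13.1% of subcluster 8 (product 9.18%). In subcluster 5, Cd27 was in 94.2% and Tnfrsf9 in 92.8% of cells, so joint shares with them could hardly differ from the products. Cd27 and Cd70 were both present in 67 of 446 cells of subcluster 5 (15%, 11.8 to 18.7%) and in 12.5% of subcluster 8, where the products were 14.8% and 12%. Tnfrsf9 and its ligand Tnfsf9 were both found in 27.2% of subcluster 12 and in 17.5% of subcluster 5 (products 27.4% and 17.1%). In subcluster 12, 44.8% of cells carried Cd40 with Tnfsf9, 46.4% Cd40 with Tnfrsf4 and 24.0% Cd40 with Cd70, against products of 42.5%, 50.7% and 21.9%. No test of joint presence was made. Cd40 with Cd70 was in 1 of 524 cDC2-like cells of subcluster 4.

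**Figure D3:**
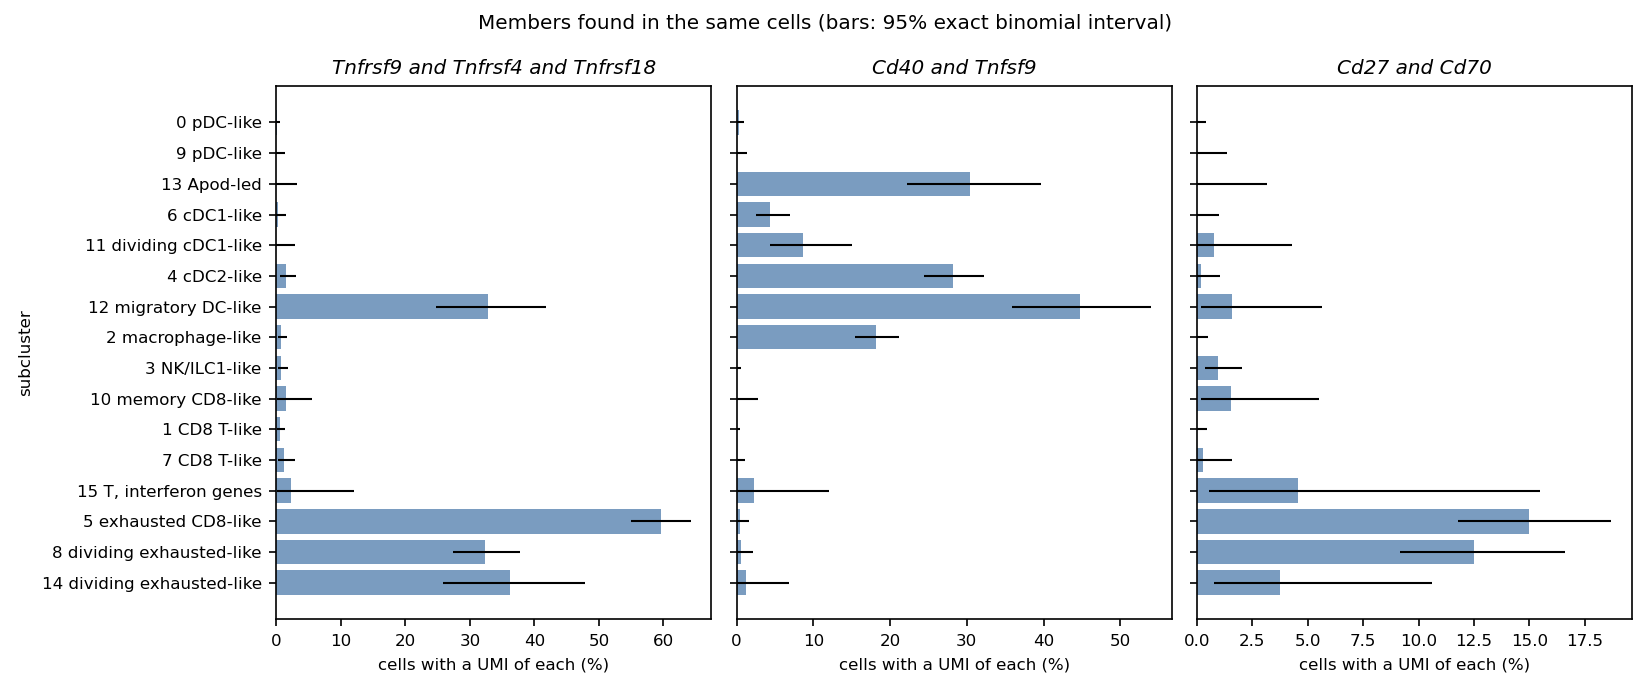
Share of cells (x axes, percent, differing between panels) with at least 1 UMI of each named gene in the 16 subclusters (y axis), with bars from 0 and 95% exact binomial intervals. The triple of Tnfrsf9, Tnfrsf4 and Tnfrsf18 reaches 59.6% in subcluster 5 and 32.8% in subcluster 12, Cd40 with Tnfsf9 reaches 44.8% in subcluster 12, and Cd27 with Cd70 15% in subcluster 5.

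Likeness in level was measured as Pearson's r of log2(CPM + 1) over 44 sums of one mouse and one subcluster with at least 20 cells, among 7610 genes with a mean of at least 10 CPM. The sums share 3 mice and one library and differ in depth, so r is a description. Among these genes Tnfrsf9 was most like Gm45716 (0.89), Mir155hg (0.88), Nrgn (0.87), Tnfrsf18 (0.86) and Xcl1 (0.85), a chemokine that attracts cDC1. Tnfrsf4 was nearest to Edf1 (0.85), Mir155hg (0.84), Nfat5, Tnfrsf9 and Aebp2 (0.78 each). Genes nearest to Tnfrsf18 were Cblb, an E3 ubiquitin ligase that restrains T cell activation (0.91), Dennd4a (0.91), Rhof (0.90), Pglyrp1 (0.88) and Tesc (0.87). Cd27 followed the T cell genes Thy1, Il27ra (0.98 each), Trbc2, Ctsw and Lck (0.97 each). Cd40 was nearest to Mvp (0.93), Il13ra1, the RANK gene Tnfrsf11a, Pgap2 (0.92 each) and H2-DMb2 (0.91). Tnfsf9 was nearest to Cdc42 (0.83), Arpc5, Plk2 (0.82 each), the costimulatory ligand gene Cd80 and Tnip3 (0.81 each). Cd70 was nearest to Eno3 (0.87), the IL-2 receptor gene Il2ra (0.84), Edf1 (0.82), Serpinb9 (0.81) and Mir155hg (0.80). Cd40lg reached 0.68 with Rora and, like Lonp2 (0.63), Tesc, Nlk and Pacs1 (0.62 each), is best read with its 113 UMIs in mind. Between members, r was 0.78 for Cd70 with Tnfrsf4, 0.70 for Cd40 with Tnfsf9 and -0.79 for Cd40 with Cd27.

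Of the other family genes, 18 of 23 receptors, 14 of 15 ligands and all 28 of 28 TRAF and NF-kB genes on the list had a row. The GITR ligand gene Tnfsf18 was the ligand with no row. Tnfsf4, whose product is the OX40 ligand, had 293 UMIs. Its means were 21.2 ± 10.6 CPM in subcluster 12 and 16.5 ± 7.15 CPM in exhausted-like subcluster 5, which are also the subclusters with the highest Tnfrsf4. Of the 28 TRAF and NF-kB genes, 18 had their highest mean in subcluster 12 and 10 elsewhere, such as Tnfaip3 (90.1 CPM in subcluster 12 against 230.4 CPM in subcluster 1) and Siva1 (40.7 CPM against 199.5 CPM in subcluster 8). Of the other receptors 3 of 18, and of the other ligands 2 of 14, had their highest mean in subcluster 12. The share over all genes of the matrix was not counted, so these counts have no background. The adaptor gene Traf1 reached 911 ± 63.6 CPM in subcluster 12 against 202 ± 27.5 CPM in subcluster 5. In the same pair, the non-canonical pathway genes Relb and Map3k14 reached 567 ± 33.5 and 239.8 ± 6.65 CPM against 54.9 ± 7.75 and 7.31 ± 2.85 CPM.

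Classes of cells were then compared within the 3 mice: 2 comparisons used no member to define the classes, and 3 split the cells by a UMI of Tnfrsf9, Cd40 or Cd27, which is left out of that test. The first comparison asked how the members differ between CD8-gate and CD4-gate cells of the authors' Cd3g and Pdcd1 clusters, gated on Cd8a, Cd8b1, Cd4 and Cd3 UMIs. The CD4 gate held 24, 11 and 24 cells of mice 1, 2 and 3, against 707, 366 and 1075 in the CD8 gate. Cd40lg was lower in CD8-gate cells, at 0.719, 1.80 and 0.174 CPM against 63.7, 68.4 and 104 CPM (log2 fold change -6.52 ± 0.72, SE; edgeR quasi-likelihood adjusted p = 8.6e-05). The groups were far apart, and 15, 10 and 17 UMIs of Cd40lg lay in the few CD4-gate cells. Cd27 was higher in CD8-gate cells, at 186, 192 and 156 CPM against 46.7, 109 and 55.0 CPM (1.57 ± 0.28, edgeR adjusted p = 0.0069), again without overlap. Plasmacytoid dendritic cell markers summed to 394, 491 and 426 CPM in CD8-gate cells against 1417, 527 and 336 CPM in CD4-gate cells. The plasmacytoid dendritic cell-like subclusters 0 and 9 carried Cd4 at 177 and 164 CPM. The part of such transcripts in the differences was not tested.

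Tnfrsf9 was 348, 369.9 and 112 CPM in CD8-gate cells against 97.6, 321 and 24.4 CPM in CD4-gate cells. The ranges overlapped, the CD8-gate value was higher in 3 of 3 mice, and the difference passed narrowly (1.36 ± 0.31, edgeR adjusted p = 0.044). CD8-gate cells were deeper, with medians of 19253, 12129 and 9037 UMIs against 7321, 5461 and 6359. Markers of exhausted CD8 T cells summed to 1189, 945 and 448 CPM against 272, 328 and 91.7 CPM, over 7 of 7 markers. With cells matched for subcluster and depth within each mouse the Tnfrsf9 value was -0.13 (edgeR adjusted p = 1.0), and without mouse 1 or mouse 3 the adjusted p was 0.12 or 0.090. DESeq2 did not call Tnfrsf9 (1.374, DESeq2 adjusted p = 0.15). With edgeR, RLE size factors gave 1.302 (adjusted p = 0.061) and a gate of at least 2 UMIs gave 1.390 (0.051). It passed with no filter on low counts (1.445, edgeR adjusted p = 6.7e-06). Leaving out mouse 2, the mouse with 321 CPM in its 11 CD4-gate cells, moved the edgeR value to 2.11 (adjusted p = 3.7e-08). In mouse 2 the CD4-gate cells stood apart: regulatory T cell markers (3 of 4 with a row) summed to 916 CPM against 149 and 116 CPM in mice 1 and 3, and cycling markers to 1839.6 CPM against 110.3 and 189 CPM. Their Tnfrsf4 and Tnfrsf18 levels, given next, were also the highest of the 3 mice, and the part of these markers was not tested.

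The remaining members did not pass. Tnfrsf18 was 188, 226 and 127 CPM against 378, 609 and 183 CPM, lower in CD8-gate cells of 3 of 3 mice (-0.85 ± 0.22, edgeR adjusted p = 0.087). Tnfrsf4 was 93.9, 153 and 39.6 CPM against 106, 855 and 61.1 CPM (-1.08 ± 0.35, edgeR adjusted p = 0.24). It passed when depth was matched (-1.96, adjusted p = 0.043) or mouse 1 was left out (-1.65, 9.0e-06), and was -0.16 without mouse 2. Tnfsf9 had 0.15 ± 0.87. Cd70 was 7.77, 17.1 and 4.51 CPM in CD8-gate cells and 0 UMIs in CD4-gate cells, which allows up to 5.50 CPM over the group (adjusted p = 0.31). Cd40 was too low to be tested. In all, 3 of 7 tested members passed, against 1.11% of the 9495 genes tested (0.569% higher and 0.537% lower in CD8-gate cells).

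Of the other family genes, 1 of 9 tested receptors passed: Tnfrsf25, which encodes death receptor 3, was lower in CD8-gate cells, at 0.523, 3.43 and 1.39 CPM against 38.2, 13.7 and 18.3 CPM (-3.98 ± 0.86, edgeR adjusted p = 0.033). None of 10 ligands and none of 28 NF-kB genes passed with edgeR (3 and 5 at an unadjusted p under 0.05), with medians of -0.28 and -0.01 against 0.10 over all genes. Checkpoint genes were higher in CD8-gate cells for 5 of 17, among them Lag3 (2.58 ± 0.32) and Pdcd1 (1.86 ± 0.26), and Icos was lower (-2.58 ± 0.28). The chemokine genes Ccl3 (4.38 ± 0.31) and Ccl4 (3.95 ± 0.44) were higher. Maf (-4.46 ± 0.40) and Trat1 (-4.37 ± 0.38) were lower.

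The second comparison asked whether the members differ with RNA of Jaml, the gene whose product was used for the sort. CD8-gate cells with and without a Jaml UMI were matched for subcluster and depth within each mouse, leaving 202, 99 and 289 cells in each class. None of the 6 tested members passed with edgeR, 1 (Tnfrsf9) had an unadjusted p under 0.05 and DESeq2 called none of the 4 for which it gave an adjusted p, while 0.340% of 9411 genes did (0.276% higher and 0.0638% lower with Jaml). Tnfrsf9 was 367, 414 and 155 CPM with Jaml and 369, 460.2 and 195 CPM without, lower in 3 of 3 mice by less than the spread between mice (-0.14 ± 0.06, interval of ± 2 SE -0.27 to -0.02, edgeR adjusted p = 0.61). Cells with at least 2 Jaml UMIs gave -0.35 (adjusted p = 0.012). Without cells in which Cd79a, Lyz2 or C1qa reached 2 UMIs, the Tnfrsf9 value was -0.589 (edgeR adjusted p = 0.021). In unmatched cells Tnfrsf9 was -0.540 (edgeR adjusted p = 0.076) and Tnfrsf4 passed (-0.508, 0.044). Tnfrsf18 was 204, 219.6 and 129.5 CPM against 203, 243 and 136 CPM (-0.06, interval -0.19 to 0.07), and Cd27 was 183, 207 and 171 CPM against 194, 174 and 159.8 CPM (0.07, interval -0.08 to 0.21). The intervals were -0.28 to 0.04 for Tnfrsf4, -0.21 to 0.80 for Tnfsf9 and -0.50 to 0.53 for Cd70. Of the other family ligands, Ltb, which encodes lymphotoxin beta, was higher with Jaml (655, 625 and 774 against 531, 531 and 675 CPM; 0.25 ± 0.05, edgeR adjusted p = 0.032), the 1 of 10 tested ligands that passed. Xcl1 was higher at 1.72 ± 0.12 (edgeR adjusted p = 2.5e-08), and Ccl3 and Ccl4, chemokines of activated killer cells, were lower at -0.85 ± 0.10 (0.00013) and -0.38 ± 0.06 (0.0067).

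The third comparison asked which genes go with Tnfrsf9 among exhausted CD8 T-like cells. CD8-gate cells of the Pdcd1 cluster with and without a Tnfrsf9 UMI were matched in the same way, which left 51, 14 and 20 cells in each class. Of these, 52 per class came from dividing subcluster 8 and 24 from subcluster 5. Tnfrsf18 was higher with Tnfrsf9, at 204, 219.6 and 280.4 CPM against 114, 189 and 56.6 CPM (1.01 ± 0.25, edgeR adjusted p = 0.029). The ranges did not overlap, but the gap was small in mouse 2 and large in mouse 3. Without mouse 3 the value was 0.58 (adjusted p = 0.20), and without mouse 1 it was 1.16 (0.16). DESeq2 did not call Tnfrsf18 here (1.057, DESeq2 adjusted p = 0.096). Tnfrsf4 was 93.6, 144 and 151 CPM against 48.1, 127 and 0 CPM (1.27 ± 0.42, edgeR adjusted p = 0.11), and Cd70 was 8.68, 50.2 and 29.3 CPM against 5.01, 37.7 and 0 CPM (1.13 ± 0.57, 0.31). Both were higher in 3 of 3 mice and neither passed. With edgeR, Tnfrsf4 passed without mouse 2 (1.88, adjusted p = 0.046) and with no filter on low counts (1.28, 4.1e-06). It did not pass without mouse 1 (1.55, edgeR adjusted p = 0.28) or mouse 3 (0.62, 0.31). Cd27 was 165, 129 and 185 CPM against 165, 168 and 169.9 CPM (-0.07 ± 0.16, interval -0.40 to 0.26). Thus 1 of 4 tested members passed, against 3.29% of 4807 genes (1.25% higher and 2.04% lower with Tnfrsf9), and Tnfsf9, Cd40 and Cd40lg were too low to be tested.

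Among the NF-kB genes, 4 of 19 tested were higher with Tnfrsf9 and none was lower, where 1.25% of all tested genes were higher. Their median log2 fold change was 0.30 against -0.01 over all genes. The 4 were the survival genes Bcl2a1d (1.23 ± 0.17, edgeR adjusted p = 0.00081) and Bcl2a1b (0.91 ± 0.17, 0.0054), which are near-identical copies whose reads may be shared, the inhibitor gene Nfkbia (0.85 ± 0.16, 0.0054) and Siva1 (1.00 ± 0.17, 0.0030), whose product binds CD27. The checkpoint genes Lag3 (1.25 ± 0.19) and Havcr2 (1.29 ± 0.33) were also higher and Cd69 (-0.84 ± 0.22) was lower, 3 of 12 tested. Cytotoxicity genes went both ways, with Xcl1 (2.75 ± 0.41), Prf1 (1.94 ± 0.29) and Ccl3 (1.01 ± 0.22) higher and Gzma (-2.46 ± 0.57) and Gzmk (-1.12 ± 0.26) lower, 5 of 11 tested.

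Memory genes were lower with Tnfrsf9 for 3 of 5 tested, of 12 on the list, where 2.04% of all tested genes were lower. Tcf7, the factor of memory and stem-like T cells, was 1.93, 9.41 and 51.2 CPM against 25.1, 189 and 123 CPM (-2.45 ± 0.40, edgeR adjusted p = 0.0023), with Lef1 at -2.04 ± 0.32 and Klf2 at -1.45 ± 0.24. By size of change the leading genes were Gzmc (4.71 ± 0.33) and the calmodulin-binding gene Nrgn (2.80 ± 0.43) above, followed by Xcl1, Prf1, Rgs16, Eno3, Klre1 and Cx3cr1. Below were Dapl1 (-3.29 ± 0.44), Tcf7, Satb1, Lef1, Tnfaip8l1, Emb, Ssh2 and Mpp1. Of 12 cell cycle genes, Mki67 (-0.94 ± 0.15), Ccnb2 and Ccna2 were lower.

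Other markers moved with this split despite the matching. Over 7 of 7 memory CD8 markers the sum was 21.2, 109.8 and 190.2 CPM with Tnfrsf9 against 173, 741 and 620.5 CPM without. Macrophage or monocyte markers summed to 573, 696 and 951 CPM against 917, 1403 and 2051 CPM, over 11 markers of which Adgre1 was at 0. NK or ILC1 markers were higher in 3 of 3 mice (706, 558 and 826 CPM against 596, 243 and 204 CPM), as were cDC1 markers (213, 219.6 and 288 CPM against 136, 134 and 68.9 CPM, with Cadm1 at 0). Exhausted CD8 markers summed to 1478, 1233 and 1019 CPM against 1065, 446 and 325 CPM, and cycling markers to 1265, 1572 and 1855 CPM against 1741, 2400.4 and 2590.2 CPM. Their part in the result was not tested. After removal of cells in which Cd79a, Lyz2 or C1qa reached 2 UMIs, mouse 2 fell under 10 cells, 1 gene passed with 343 at an unadjusted p under 0.05, and Dapl1, Ccl3 and Gzma changed sign.

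**Figure D4:**
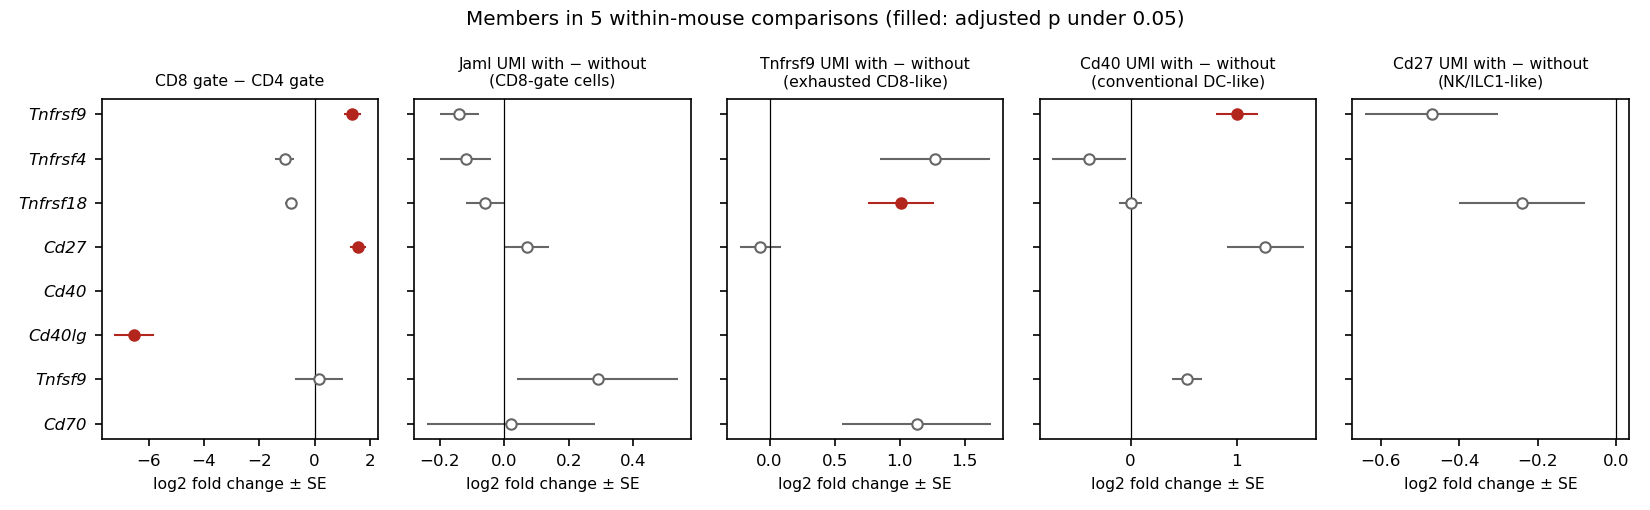
Log2 fold changes ± SE (x axes, differing between panels) of the tested members (y axis) in the 5 comparisons within mice, filled where the edgeR adjusted p was under 0.05. Tnfrsf9, Cd27 and Cd40lg pass in the first panel, Tnfrsf18 in the third and Tnfrsf9 in the fourth, and Cd70 is not drawn in the first because CD4-gate cells had 0 UMIs.

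The fourth comparison asked which ligands and maturation genes go with Cd40 among conventional dendritic cell-like cells. Cells of the Xcr1 and Ifitm1 clusters with and without a Cd40 UMI were matched, leaving 198, 75 and 104 cells per class, 227 of them from cDC2-like subcluster 4 and 92 from cDC1-like subcluster 6. Tnfsf9 was 36.5, 50.2 and 43.7 CPM with Cd40 against 24.7, 28.1 and 37.5 CPM without, higher in 3 of 3 mice with ranges that overlapped (0.53 ± 0.14, edgeR adjusted p = 0.086). It passed with another matching draw (0.67, adjusted p = 0.020). Tnfrsf9 was 22.3, 15.6 and 29.9 CPM against 11.7, 4.01 and 17.7 CPM (1.00 ± 0.20, edgeR adjusted p = 0.018), higher in 3 of 3 mice. The same second draw gave Tnfrsf9 0.74 (adjusted p = 0.066). Leaving out mouse 1 or mouse 2 gave Tnfrsf9 edgeR adjusted p-values of 0.11 and 0.062. T cell markers summed to 152, 291 and 194 CPM with Cd40 against 169.9, 81.7 and 136 CPM without, higher in 2 of 3 mice. Cd4 was 4.92, 5.85 and 5.66 CPM against 0.770, 0 and 0 CPM, and its part was not tested. Without cells in which Cd3e or Cd79a reached 2 UMIs the Tnfrsf9 value was 0.68 (adjusted p = 0.18).

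Cd27 was 6.81, 11.2 and 6.47 CPM against 3.66, 1.50 and 3.63 CPM (1.27 ± 0.36, edgeR adjusted p = 0.12). Tnfrsf18 was 43.0, 46.8 and 48.5 CPM against 44.7, 44.6 and 47.6 CPM (0.00 ± 0.11, interval -0.22 to 0.22). Tnfrsf4 was 4.73, 6.83 and 19.8 CPM against 13.7, 3.01 and 16.9 CPM (-0.39 ± 0.35, adjusted p = 0.74). In unmatched cells, where 107 of the 125 cells of subcluster 12 fall in the class with Cd40, Tnfrsf4 was 1.99 (adjusted p = 0.00081). In the matched cells 1 of 5 tested members passed, against 2.36% of 9098 genes (2.10% higher and 0.264% lower with Cd40), and Cd70 and Cd40lg were too low to be tested.

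Of the NF-kB genes, 11 of 27 tested were higher with Cd40 and none was lower, where 2.10% of all tested genes were higher, with a median of 0.29 against -0.01 over all genes. Nfkbia was 375, 558 and 615 CPM against 220.4, 347 and 410.2 CPM (0.68 ± 0.05, edgeR adjusted p = 3.2e-05). Traf1, an adaptor of CD40 and 4-1BB, was 179, 204 and 232 CPM against 104, 108 and 172 CPM (0.70 ± 0.09, 0.00084). The adhesion gene Icam1 (0.86 ± 0.14), Birc3 (0.72 ± 0.15), Nfkb1 (0.47 ± 0.07), Nfkb2 (0.54 ± 0.12) and Rel (0.45 ± 0.08) were also higher, with Tnfaip3, Nfkbie, Bcl2a1b and Bcl2a1d. Of 24 dendritic cell maturation genes, 4 were higher: Cd83 (0.52 ± 0.08), the PD-L1 gene Cd274 (0.68 ± 0.12), Marcksl1 and Birc3.

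Among the genes that met the rule for naming (a level of 30 CPM or more and one direction over the mice), Cxcl10 changed most with Cd40. Cxcl10, a chemokine for CXCR3-bearing T cells, was 189, 356 and 303 CPM against 18.1, 16.0 and 11.7 CPM (4.01 ± 0.17, edgeR adjusted p = 1.2e-07). It was followed by Ifit1 (2.20 ± 0.17), Rsad2, Ifit2, Ifit3, Iigp1, Ifit3b and Fam26f. Lower genes by the same rule were Rrm2, a ribonucleotide reductase subunit gene (-0.66 ± 0.12), Lig1, Dut, Rtl8b, Eif4ebp2, Mcm5, the decoy receptor gene Il1r2 (-0.46 ± 0.08) and Stmn1. Of 12 cell cycle genes 2 were lower (Mcm5 and Rrm2) and none was higher, with a median of 0.03, and cycling markers summed to 289, 312 and 188 CPM with Cd40 against 262, 313 and 164 CPM without.

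**Figure D5:**
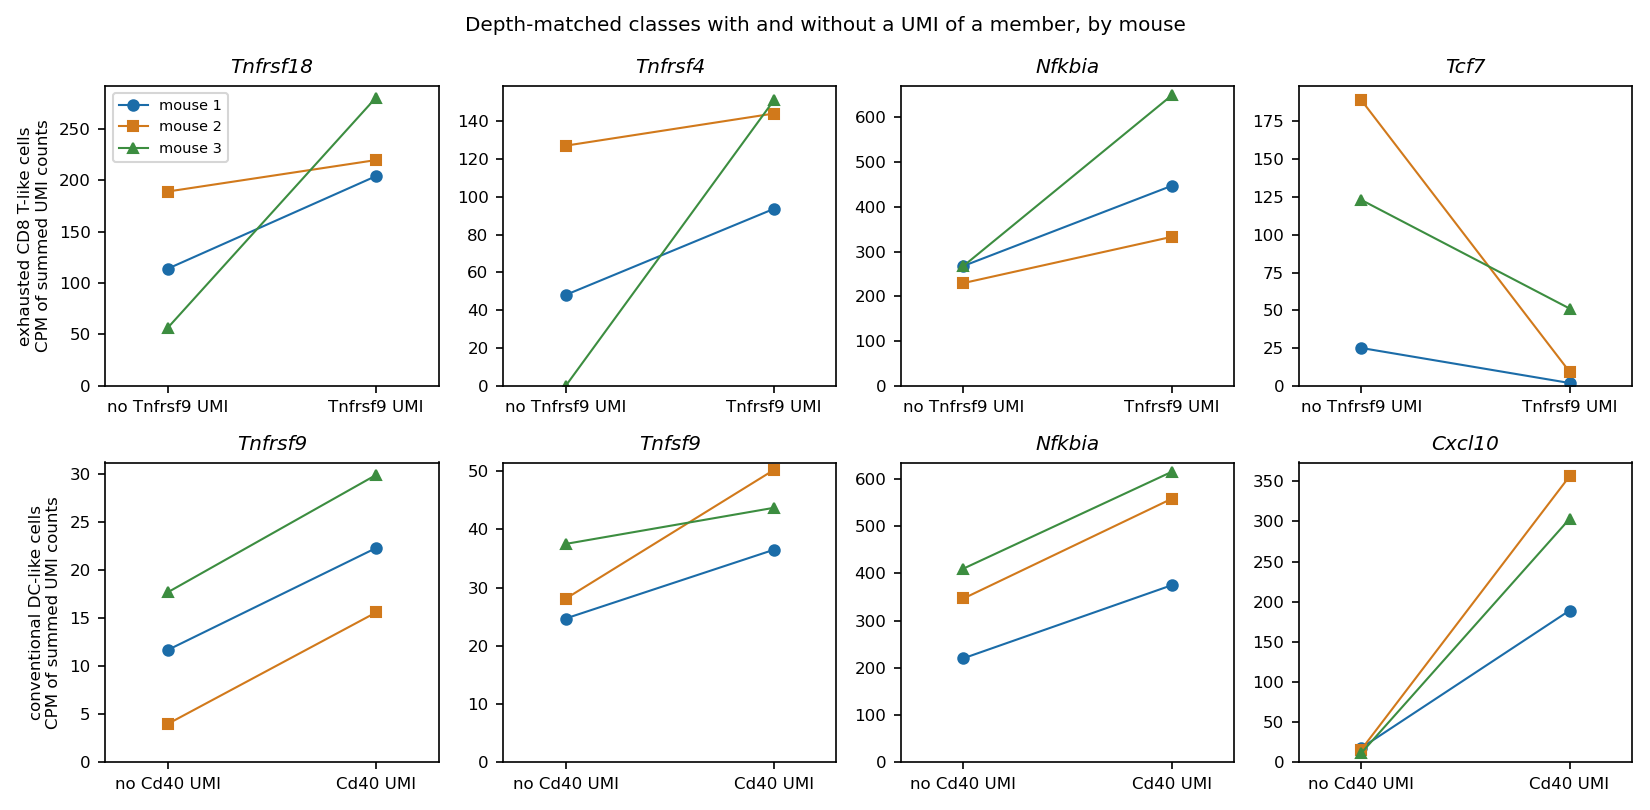
Levels (y axes, CPM of summed UMI counts from 0) in matched cells without and with a UMI of Tnfrsf9 among exhausted CD8 T-like cells (top) and of Cd40 among conventional dendritic cell-like cells (bottom), with 1 line per mouse. Tnfrsf18 rises most in mouse 3 (56.6 to 280.4 CPM), Tcf7 is lower with Tnfrsf9 in 3 of 3 mice, and Tnfrsf9, Tnfsf9, Nfkbia and Cxcl10 are higher with Cd40 in 3 of 3 mice.

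The last comparison asked what goes with Cd27, a marker of NK cell maturation, in NK or ILC1-like subcluster 3, with 59, 34 and 65 matched cells per class. Tnfrsf9 was 283, 105 and 102 CPM with Cd27 against 356, 245 and 111 CPM without, lower in 3 of 3 mice (-0.47 ± 0.17, edgeR adjusted p = 0.39). It passed when cells with at least 2 Cd27 UMIs were taken (-1.44, adjusted p = 7.3e-05) and in unmatched cells (-1.06, 3.9e-05), and was 0.23 (0.82) without lineage-conflicting cells. Tnfrsf18 was 297, 171 and 239 CPM against 254, 293 and 323 CPM (-0.24 ± 0.16, adjusted p = 0.75). None of the 2 tested members passed with edgeR or DESeq2, 1 (Tnfrsf9) had an unadjusted p under 0.05, while 0.319% of 5647 genes did (0.0531% higher and 0.266% lower with Cd27). Ccl5 (0.43 ± 0.06, edgeR adjusted p = 0.0039) and Epsti1 (0.59 ± 0.12, 0.030) were higher with Cd27. Cxcr6, a residency-associated chemokine receptor gene, was lower (52.3, 108 and 77.3 against 149, 185 and 133 CPM; -1.01 ± 0.18, 0.013), as were Tmem176b (-1.44 ± 0.24), Capg, Pdia6, Calr, Bst2 and Hspa5. Lyz2 (-1.76 ± 0.37) rested on 735 CPM in mouse 1 without Cd27. The gamma-delta T cell markers, 4 of 4 detected, summed to 291, 417 and 273 CPM with Cd27 against 613, 813 and 378 CPM without. CD8 markers summed to 72.1, 49.7 and 98.1 CPM against 27.1, 20.9 and 33.8 CPM. T cell markers summed to 4282, 4492 and 5112 CPM against 3740.2, 3963 and 4487 CPM, higher with Cd27 in 3 of 3 mice. The split was therefore not made among NK cells known to be free of T cells. Plasmacytoid dendritic cell markers (537, 351 and 356 CPM against 797, 639.7 and 381 CPM) and cDC2 markers (36.7, 22.1 and 24.5 CPM against 101, 38.9 and 37.6 CPM) were lower with Cd27 in 3 of 3 mice, and the part of these markers in the differences was not tested.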

How the data were processed

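The deposited UMI counts, with no normalization, and the deposited annotation, with cluster numbers, hashtags and the percent of mitochondrial UMIs, were used as the authors gave them. Per the submitters' processing notes the tools were Cell Ranger 3.1.0 and Seurat 3.1.5 with mm10. The authors' filters are not given in the sources used here. Cells had at least 1499 genes and at most 5.00% mitochondrial UMIs.

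UMI counts of each class were added up within a mouse, leaving out sums of under 10 cells. Classes were compared with edgeR 4.0.16 in R 4.3.3 (quasi-likelihood test after TMM scaling and filterByExpr, with a block for the mouse, since both classes come from the same animal). P-values were adjusted over all genes tested (Benjamini-Hochberg, threshold 0.05). Fold changes are log2 of the class named first over the second. Splits by a UMI were matched by a seeded draw within mouse, subcluster and quintile of total UMIs. No doublet caller was used. A count of 0 allows 3 UMIs. The script was tested on simulated data. DESeq2 1.42.0 was an alternative.

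Members are named wherever tested, with up to 8 genes per direction (at least 30 CPM in the higher class, same direction in every mouse) and list genes past the threshold. The members and lists were chosen with earlier results of these data known. Because the mouse is a block, p-values weigh a difference between classes against how it varied over these 3 mice. The mice form 1 group, and both classes are cells of the same animals.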

Additional observations from a re-analysis of the deposited data

How the results depend on the processing

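With 3 mice, 1 library and few cells in some classes, the counts of genes past the threshold moved with several settings. Over member values, 182 alternative results kept sign and call, 19 newly passed and 18 no longer passed with the same sign, and 26 had the other sign. In 24 of these neither value passed, among them Tnfrsf9 with Cd27 without conflicting cells (0.227), Tnfrsf4 with Cd40 without mouse 1 (0.439), Cd70 with Jaml without conflicting cells (-1.315) and Tnfsf9 between the gates without conflicting cells (-0.526). The 2 with a value past the threshold were Tnfrsf9 between CD8 and CD4 gates with depth matched (-0.133) and Tnfrsf4 with Cd40 in unmatched cells (1.991). Other genes that changed sign with a value past the threshold were Gzmc with Jaml (-1.530 without conflicting cells, -0.092 in another draw), Dapl1, Ccl3 and Gzma with Tnfrsf9 without conflicting cells (0.325, -0.352 and 0.994) and Il1r2 with Cd40 in unmatched cells (0.145). Apart from the values given above, the cause was not tested.

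Without the mouse as a block, the pairing by animal was lost and the counts were 23 for CD8 against CD4 gate (105 with it), 0 for Jaml (82 at an unadjusted p under 0.05; 32 with it), 6 for Tnfrsf9 (158), 55 for Cd40 (215) and 0 for Cd27 (300 unadjusted; 18). DESeq2 gave 6 for Jaml, 34 for Tnfrsf9, 99 for Cd40 and 1 for Cd27. With no filter on low counts they were 253, 91, 313 and 75 for gates, Jaml, Tnfrsf9 and Cd27. A 2-UMI gate gave 101 for Jaml, 366 for Cd40 and 52 for Cd27. Unmatched cells gave 107 for Jaml, 1024 for Tnfrsf9, 1794 for Cd40 and 123 for Cd27. Without conflicting cells the counts were 178 for gates (mouse 2 was then left out, with 9 CD4-gate cells), 1 for Tnfrsf9 and 6 for Cd27. The gates gave 30 with depth matched, and Cd27 gave 28 with RLE size factors and 50 in another draw. Leaving out 1 mouse gave 110 to 316 for gates (highest without mouse 2), 42 to 123 for Jaml (57 without mouse 1, 123 without mouse 2), 93 to 103 for Tnfrsf9 (93 without mouse 1 or mouse 2, 103 without mouse 3), 127 to 165 for Cd40 (lowest without mouse 2) and 35 to 93 for Cd27 (38 without mouse 1, 35 without mouse 2, 93 without mouse 3). Cd27 in subcluster 5 was 210.2 CPM in thinned cells and 206 CPM as a mean over cells (196 as reported), and Cd40lg in subcluster 1 was 3.22 CPM in thinned cells and 16.0 CPM as a mean over cells (10.2).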
